A study of Mus musculus with 6 samples.

Results

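The genes described here are the protein-coding neighbours of Nkx2-5 on mouse chromosome 17: every protein-coding row of the deposited table whose start lies within 5 Mb of the start of Nkx2-5, with 14 genes of the same stretch left out by name or family (Nkx2-5 itself, Cacna1h, Hmga1, Rnps1, Cdkn1a, Fkbp5, Srsf3, Srpk1, and the Rps, Rpl and Nduf genes). This gave 142 genes of the 12824 in the table, 94 on the proximal side (lower coordinates, towards the centromere) and 48 on the distal side. RNA was sequenced from the hearts of 6 adult C57BL/6 mice aged 2 months. In the 3 knockout (KO) hearts both Srsf4 alleles were floxed and the mice carried NKx2.5-Cre, a recombinase named for the cardiac gene Nkx2-5 that drives it. The 3 control hearts had both Srsf4 alleles floxed and no Cre. All 6 mice thus shared the floxed allele, and loss of Srsf4 and carriage of Cre cannot be told apart. The labels do not say which NKx2.5-Cre line was used. Library names carry 1 prefix in all KO hearts and another in all controls, and effects of that split and of genotype cannot be told apart.

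Nkx2-5 encodes a homeodomain transcription factor that acts from the earliest heart progenitors onwards, and its control regions are widely used to drive Cre in heart muscle. In several Nkx2-5 Cre lines the recombinase sits in the Nkx2-5 gene, so its flanking genes are inherited together with it. The flank holds runs of zinc finger genes at its proximal end and a dense block of housekeeping, signalling and mitochondrial genes. Its distal part holds the detoxifying enzyme gene Glo1, in a stretch that is known to be duplicated in some inbred mouse strains. Neither the sequence of the flank nor its copy number was measured in these samples.

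Srsf4, the deleted splicing factor gene, had 10.8, 10.15 and 8.39 CPM (counts relative to library size, with TMM scaling between libraries) in KO hearts 1 to 3, against 22.1, 23.5 and 23.7 CPM in control hearts 1 to 3, so the libraries followed their labels. Library totals were 66927244 to 73344126 counts in KO hearts and 59810975 to 74941323 in controls. At these totals the limit that a count of 0 allows, 3 counts, was 0.0400 to 0.0502 CPM, for counting error only. Markers of heart muscle were high in all libraries, and the 8 summed to 45730 to 49680 CPM in the KO group and 47010 to 49390 CPM in controls. KO heart 1 stood apart from the other KO hearts on the second principal component, which held 17.4% of the variance. The 7 fibroblast markers summed to 305 CPM in KO heart 1 and to 658 and 572 CPM in the other KO hearts, against 522 to 565 CPM in controls. The 6 endothelial markers summed to 383 CPM in KO heart 1 and to 624 and 533 CPM in the others, against 512 to 535 CPM in controls. The 6 smooth muscle and pericyte markers summed to 421 to 531 CPM in the KO group and 589 to 679 CPM in controls, with 1 of the 6 lower by the test. The part of these markers in the results below was not tested.

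Of the 142 genes, 141 had enough counts to be tested; Wfikkn1, with 0.0466 to 0.158 CPM in the KO group and 0.0129 to 0.0638 CPM in controls, did not. "Passed" means an adjusted p below 0.05 in edgeR's quasi-likelihood test over all genes of the table. Of the 141, 17 passed (12.1%), 6 higher and 11 lower in KO hearts. Over all 12686 genes tested 6.03% passed, 3.29% higher and 2.74% lower. The median log2 fold change of KO over control was -0.06 over the 141 genes and 0.00 over all genes, and the median absolute log2 fold change was 0.19 against 0.15. In 52 of the 141 (36.9%) all KO values lay on one side of all control values, 18 above and 34 below. Over all genes tested they did so in 27.2%, 1738 above and 1715 below. At least 2-fold differences that passed were found in 4 of the 141 genes, against 2.42% of all genes. When libraries were scaled by total counts alone, which moved the median of all genes to -0.14, 27 passed, 4 higher and 23 lower. The genes left out by the rule held a further 5 that passed among 14. In bulk tissue fewer cells of a type and less RNA per cell cannot be told apart.

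**Figure D1:**
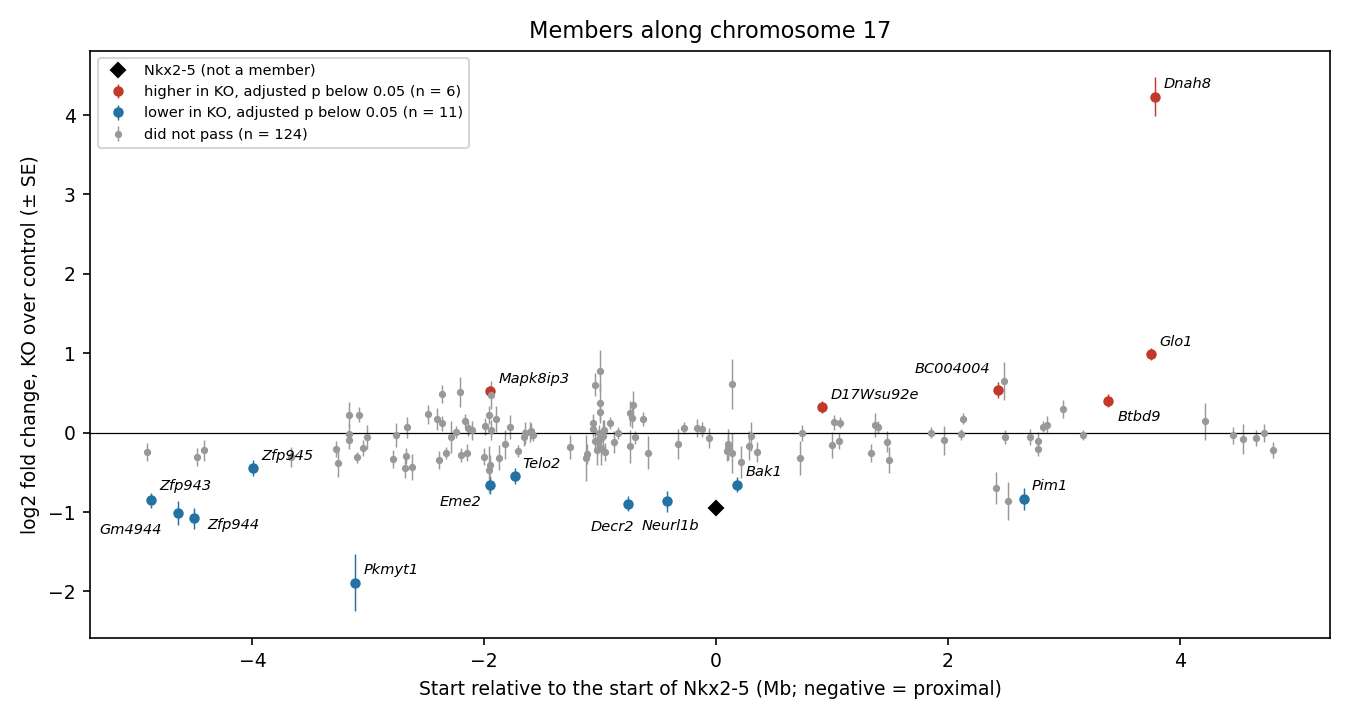
Each point is 1 tested gene, placed by the distance of its start from the start of Nkx2-5 in Mb (x axis) with its log2 fold change of KO over control and SE (y axis). The 6 genes that rose and 11 that fell are named. Lower calls prevail on the proximal side, and Dnah8 and Glo1, on the distal side, stand above all others.

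At the proximal end lies a run of zinc finger genes, DNA-binding proteins of which many repress transcription, and 4 genes of this stretch fell in KO hearts. Zfp943 (ENSMUSG00000053347, chromosome 17, 21962552 to 22071168, GRCm38) had 7.42, 6.24 and 6.93 CPM in KO hearts 1 to 3, against 12.5, 12.5 and 12.1 CPM in control hearts 1 to 3. Every KO heart lay far below every control, and the fold was 1.80 (log2 fold change -0.85 with SE 0.09, edgeR adjusted p = 0.0023). Zfp944 (ENSMUSG00000033972, 22337989 to 22361400) had 2.52, 1.94 and 2.45 CPM in KO hearts, against 4.84, 4.73 and 5.04 CPM in controls. It was 2.11-fold lower, again with no overlap between the groups (log2 fold change -1.08 with SE 0.13, edgeR adjusted p = 0.00394). The predicted gene Gm4944, between them, was 2.02-fold lower, at 1.54 ± 0.241 CPM in the KO group and 3.11 ± 0.180 CPM in controls (SD, n = 3 each, edgeR adjusted p = 0.0104). Zfp945 fell more narrowly, to 9.29 ± 1.05 CPM against 12.7 ± 0.334 CPM in controls (edgeR adjusted p = 0.0497). Gm4944 lost its call without control 1 or control 2 (edgeR adjusted p 0.0565 to 0.0587), and Zfp945 without any 1 library other than KO heart 1 (0.092 to 0.183) and with no filter on low counts (0.0525).

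In the 9 Zfp genes more than 3 Mb proximal of Nkx2-5, a grouping chosen after their values were seen, all KO values lay below all control values. Over all 12686 genes tested, 1715 had all KO values below all control values. Of these 9, 3 passed (33.3%, against 6.03% of all genes); the others, Zfp942, Zfp758, Zfp946, Zfp40, Zfp213 and Zfp13, had log2 fold changes of -0.38 to -0.21. The median of the 9 was -0.31. None of the 9 had a near-identical transcript among the genes of the table, though 46.5% of the exon bases of Zfp213 overlap a non-coding gene. The promoters of Zfp943 and Zfp944, the pair with the smallest p of this run, are shown because they share sequence in opposite orientation: 169 bases of the Zfp943 window equal the reverse complement of 169 bases of the Zfp944 window. Windows run from 250 bases before to 50 after the gene start and are from RefSeq (GRCm38.p6); capitals mark the shared run. Zfp943 is on the plus strand at chr17:21962309-21962608 and Zfp944 on the minus strand at chr17:22361351-22361650.
Zfp943: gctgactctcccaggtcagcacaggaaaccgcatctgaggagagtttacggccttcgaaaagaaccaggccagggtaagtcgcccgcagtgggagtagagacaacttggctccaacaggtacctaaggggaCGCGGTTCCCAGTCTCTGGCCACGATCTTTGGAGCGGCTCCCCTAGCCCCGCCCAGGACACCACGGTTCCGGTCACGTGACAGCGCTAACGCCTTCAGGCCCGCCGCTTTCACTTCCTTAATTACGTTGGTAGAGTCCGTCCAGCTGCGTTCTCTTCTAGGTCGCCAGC
Zfp944: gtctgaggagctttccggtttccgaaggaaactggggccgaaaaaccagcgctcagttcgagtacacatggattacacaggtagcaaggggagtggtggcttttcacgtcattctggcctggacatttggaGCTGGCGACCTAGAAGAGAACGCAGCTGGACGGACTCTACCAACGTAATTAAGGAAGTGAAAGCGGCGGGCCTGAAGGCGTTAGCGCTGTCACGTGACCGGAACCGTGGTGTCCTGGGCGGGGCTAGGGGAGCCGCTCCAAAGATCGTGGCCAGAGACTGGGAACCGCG
Zfp942, on the minus strand with its upstream end at 21962464, starts within the Zfp943 window. It did not pass (log2 fold change -0.24, edgeR adjusted p = 0.265). The start of Zfp758, on the plus strand at 22361453, falls within the Zfp944 window. Zfp758 had 4.37 ± 0.305 CPM in the KO group, against 5.39 ± 0.498 CPM in controls and did not pass (log2 fold change -0.30, edgeR adjusted p = 0.185).

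From 3 to 2 Mb proximal 0 of 20 passed in edgeR's test, although 9 of the 20 had an unadjusted p below 0.05. Over all genes 2732 of 12686 had an unadjusted p below 0.05. Just beyond 3 Mb, Pkmyt1, an inhibitory kinase of the mitotic Cdk1, was the least abundant of the 141 genes; it had 0.401, 0.202 and 0.134 CPM in KO hearts 1 to 3, against 0.993, 0.849 and 0.909 CPM in control hearts 1 to 3. The KO values were all lower and the fold was 3.70 (log2 fold change -1.89 with SE 0.36, edgeR adjusted p = 0.0262). Of its exon bases 8.76% overlap Paqr4 on the opposite strand. Paqr4 had 14.7 ± 0.139 CPM in the KO group, against 18.3 ± 0.658 CPM in controls, and did not pass (edgeR adjusted p = 0.0513). The Pkmyt1 value is thus uncertain. Pkmyt1 lies outside the rule for named genes because of its low level. Its call was lost without any 1 library other than KO heart 1 (edgeR adjusted p 0.0626 to 0.115).

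Between 2 and 1 Mb proximal of Nkx2-5, neighbours with overlapping exons, Mapk8ip3 and Eme2, moved in opposite directions. Mapk8ip3 (ENSMUSG00000024163, 24892153 to 24936977), a scaffold of JNK signalling and an adaptor of kinesin transport, had 69.1, 68.1 and 73.0 CPM in KO hearts 1 to 3, against 48.6, 48.5 and 49.5 CPM in control hearts 1 to 3. Both groups were tight and the gene was 1.43-fold higher (log2 fold change 0.52 with SE 0.07, edgeR adjusted p = 0.00508). Of its exon bases 10.7% overlap Eme2, on the same strand. Mrps34 and Nme3, which did not pass, lie within the span of Mapk8ip3 on the opposite strand and share transcript sequence with it. For Mrps34, 1309 exon bases overlap Mapk8ip3 in position. Mrps34 had 39.5 ± 5.65 CPM in the KO group, against 38.6 ± 4.55 CPM in controls, and Nme3 had 12.9 ± 2.78 CPM in the KO group, against 9.28 ± 1.48 CPM in controls. Summed with Mapk8ip3, the log2 ratio was 0.32 with Mrps34 and 0.51 with Nme3. Eme2, which partners the nuclease Mus81, was 1.58-fold lower, at 6.45 ± 0.721 CPM in the KO group and 10.2 ± 0.880 CPM in controls (edgeR adjusted p = 0.0188). Of the exon bases of Eme2, 28.2% are shared in position with Spsb3, on the opposite strand. Spsb3 had 15.96 ± 1.92 CPM in the KO group, against 21.2 ± 2.57 CPM in controls, and did not pass. Summed over Eme2 and Spsb3, the log2 ratio was -0.49. Eme2 also shares 1557 exon bases with Mapk8ip3 on the same strand, and a sum of that pair was not made. The Eme2 value is thus uncertain, and so is the split of counts between Eme2 and Mapk8ip3. Telo2, a co-chaperone subunit that stabilises kinases of the DNA damage response, fell 1.46-fold, to 4.50 ± 0.255 CPM against 6.56 ± 0.348 CPM in controls (edgeR adjusted p = 0.0222). The Eme2 call was lost without KO heart 3 or any control (0.0695 to 0.086) and the Telo2 call without any 1 library other than KO heart 1 (0.0705 to 0.12).

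Closer in, an enzyme of fatty acid breakdown and a Notch regulator were lower. Decr2 (ENSMUSG00000036775, 26081211 to 26090329), the peroxisomal dienoyl-CoA reductase needed to break down unsaturated fatty acids, had 4.61, 4.50 and 4.08 CPM in KO hearts 1 to 3, against 8.39, 8.15 and 7.99 CPM in control hearts 1 to 3. Every KO heart lay far below every control, and the fold was 1.86 (log2 fold change -0.89 with SE 0.10, edgeR adjusted p = 0.00204). Neurl1b (26414829 to 26446349), a ubiquitin ligase that acts on Notch ligands, had 1.76, 2.11 and 1.80 CPM in KO hearts, against 3.28, 3.32 and 3.73 CPM in controls. It was 1.82-fold lower (edgeR adjusted p = 0.0112), a call lost without any 1 control (0.0533 to 0.0638).

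The genes next to Nkx2-5 showed no change that passed. Nkx2-5 itself was 1.93-fold lower in KO hearts (19.7 ± 1.13 CPM in the KO group and 38.1 ± 1.75 CPM in controls, edgeR adjusted p = 0.000652). Over all 12686 genes tested 2732 had an unadjusted p below 0.05 in edgeR's test, and 27.2% had groups that did not overlap. Of the 5 nearest tested genes on each side, 0 of 10 passed in edgeR's test and 0 had an unadjusted p below 0.05. In all 10 the KO and control values overlapped. On the proximal side these were Dusp1, a MAP kinase phosphatase, Ergic1, a cargo protein of the early secretory path, the proton pump subunit Atp6v0e, the stress regulator Crebrf and the membrane fusion factor Bnip1. Bnip1, the nearest gene on this side (start at 26781079, against 26838664 for Nkx2-5), had 14.7, 11.3 and 12.35 CPM in KO hearts 1 to 3, against 12.6, 12.5 and 15.1 CPM in control hearts 1 to 3. Its log2 fold change was -0.07 with a 95% interval of -0.36 to 0.23. Crebrf had a log2 fold change of 0.04 (-0.18 to 0.26), Atp6v0e of 0.06 (-0.21 to 0.33) and Ergic1 of 0.06 (-0.11 to 0.23); these 3 were below 0 with total counts as the only scaling. Dusp1 varied more between hearts (-0.14, -0.58 to 0.29). The log2 fold change of Nkx2-5, -0.95, lay outside the interval of each of the 10.

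On the distal side the nearest included Phf1, a partner of the Polycomb complex, Cuta, the zinc finger gene Zbtb9 and Ggnbp1. Phf1 had a log2 fold change of -0.23 (-0.52 to 0.07) and Cuta of -0.19 (-0.56 to 0.19). Zbtb9 and Ggnbp1 overlap, with 84.4% of the exon bases of Zbtb9 within Ggnbp1, and in both KO heart 1 stood apart from the other KO hearts. Zbtb9 had 1.25 CPM in KO heart 1 and 2.87 and 2.54 CPM in KO hearts 2 and 3, against 1.24 to 1.77 CPM in controls. Ggnbp1 had 15.3 CPM in KO heart 1 and 8.44 and 7.85 CPM in KO hearts 2 and 3, against 10.95 to 14.2 CPM in controls. Their intervals, -0.12 to 1.36 and -0.85 to 0.34, were the widest of the 10. Without KO heart 1, Phf1 passed (log2 fold change -0.37, edgeR adjusted p = 0.0133), as did Zbtb9 (0.91, 0.0106) and Ggnbp1 (-0.63, 0.00714). In that fit 22.8% of all genes passed, and the nearest proximal genes did not.

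**Figure D2:**
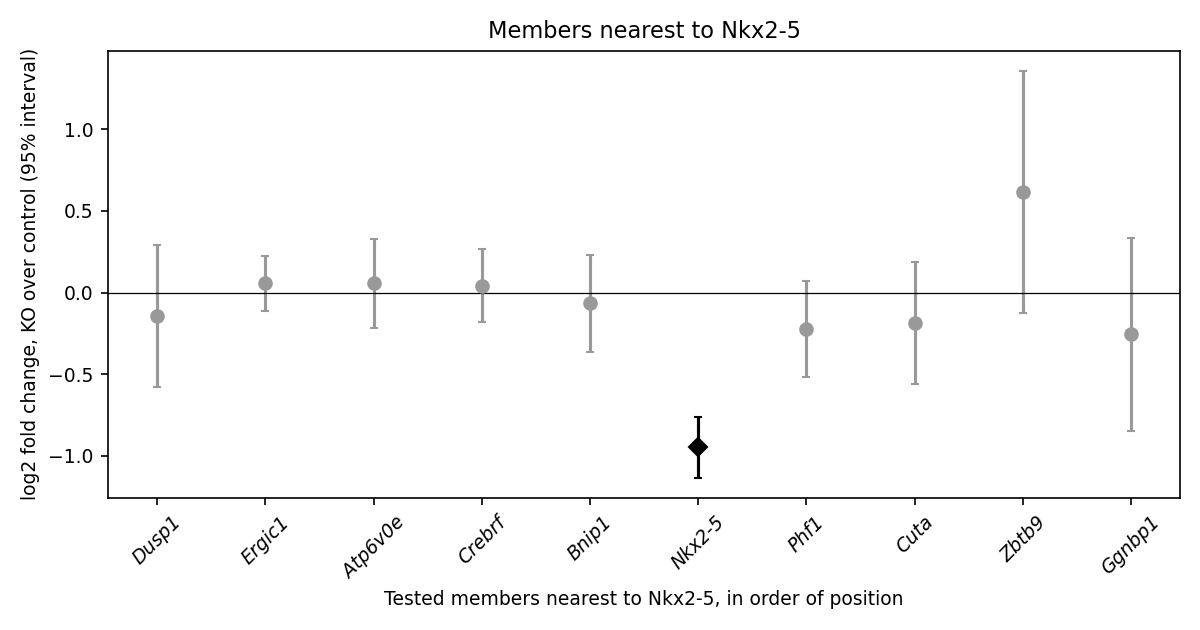
Log2 fold change of KO over control with its 95% interval (y axis) for 9 of the 10 tested genes nearest to Nkx2-5, in order of position (x axis), and for Nkx2-5 itself (diamond). The intervals of these 9 neighbours include 0, while Nkx2-5 lies at -0.95.

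The nearest gene that passed was Bak1 (ENSMUSG00000057789, 27019810 to 27029009), which forms the mitochondrial pore of apoptosis and starts 0.181 Mb distal. It had 7.68, 8.13 and 7.47 CPM in KO hearts 1 to 3, against 11.5, 11.9 and 13.3 CPM in control hearts 1 to 3. All KO hearts were lower and the fold was 1.58 (log2 fold change -0.66 with SE 0.09, edgeR adjusted p = 0.00767); 18.2% of its exon bases overlap Ggnbp1. D17Wsu92e was 1.25-fold higher, at 163 ± 5.09 CPM in the KO group and 129.9 ± 3.06 CPM in controls (edgeR adjusted p = 0.0448), and its call was lost without any 1 library other than KO heart 1 (0.11 to 0.251), with total counts as the only scaling and with the authors' scaling factors (0.0508). Pim1 (29490812 to 29496111), a kinase that favours survival and growth, had 5.26, 7.17 and 6.27 CPM in KO hearts, against 11.4, 9.88 and 12.02 CPM in controls. It was 1.78-fold lower (log2 fold change -0.83 with SE 0.14, edgeR adjusted p = 0.0147; 14.5% of its exon bases overlap an antisense gene) and its call was lost without KO heart 3, control 1 or control 3 (0.0563 to 0.0737).

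At 3 to 4 Mb distal 3 consecutive genes of the table rose, whereas at 4 to 5 Mb, the end of the window, 0 of 6 passed in edgeR's test. Glo1 (ENSMUSG00000024026, 30592866 to 30612659), the glyoxalase that clears the toxic sugar by-product methylglyoxal, had 166, 152 and 162 CPM in KO hearts 1 to 3, against 78.2, 81.1 and 82.0 CPM in control hearts 1 to 3. The groups lay far apart with little spread, and the fold was 1.99 (log2 fold change 0.99 with SE 0.08, edgeR adjusted p = 0.000432). Dnah8 (ENSMUSG00000033826, 30624354 to 30875264), a motor protein of sperm tails, had 3.45, 4.41 and 4.91 CPM in KO hearts, against 0.258, 0.157 and 0.255 CPM in controls. Its 18.8-fold rise was the largest of the 141 genes (log2 fold change 4.23 with SE 0.24, edgeR adjusted p = 0.000128). Btbd9 (ENSMUSG00000062202, 30215524 to 30576287), a BTB domain protein, rose 1.32-fold, to 16.5 ± 0.483 CPM against 12.5 ± 0.893 CPM in controls (edgeR adjusted p = 0.0346), and its call was lost without any 1 library other than KO heart 1 (0.0626 to 0.193) and with total counts as the only scaling. The next genes of the table on either side did not pass: Zfand3, proximal, had a log2 fold change of -0.03 and Abcg1, a cholesterol exporter, of 0.14. These were named after their values were seen.

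The promoters of Glo1 and Dnah8, the rises with the smallest p, are given from RefSeq (GRCm38.p6), with the same window; no part is capitalised. The genes point away from each other, and the RefSeq start of Dnah8 lies downstream of the start in the table: Glo1 is on the minus strand at chr17:30612610-30612909 and Dnah8 on the plus strand at chr17:30626686-30626985.
Glo1: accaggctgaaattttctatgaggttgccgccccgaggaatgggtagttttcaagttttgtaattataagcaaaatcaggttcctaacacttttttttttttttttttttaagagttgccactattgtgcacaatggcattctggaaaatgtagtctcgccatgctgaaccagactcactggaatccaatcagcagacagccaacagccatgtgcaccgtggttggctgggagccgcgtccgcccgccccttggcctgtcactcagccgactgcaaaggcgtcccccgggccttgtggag
Dnah8: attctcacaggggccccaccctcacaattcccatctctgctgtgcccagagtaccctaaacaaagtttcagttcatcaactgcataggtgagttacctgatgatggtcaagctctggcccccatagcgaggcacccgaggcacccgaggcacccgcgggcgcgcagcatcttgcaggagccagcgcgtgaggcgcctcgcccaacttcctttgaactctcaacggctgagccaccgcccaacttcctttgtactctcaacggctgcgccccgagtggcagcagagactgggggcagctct
Because Nkx2-5 fell, all RefSeq promoter windows were searched for a motif of its factor family, TNAAGTG, on both strands. It was in 11.5% of all 32851 windows, in 15 of 153 windows (9.8%) of the 112 genes that matched by symbol, and in 0 of the 17 windows of the 13 matched genes that passed.

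**Figure D3:**
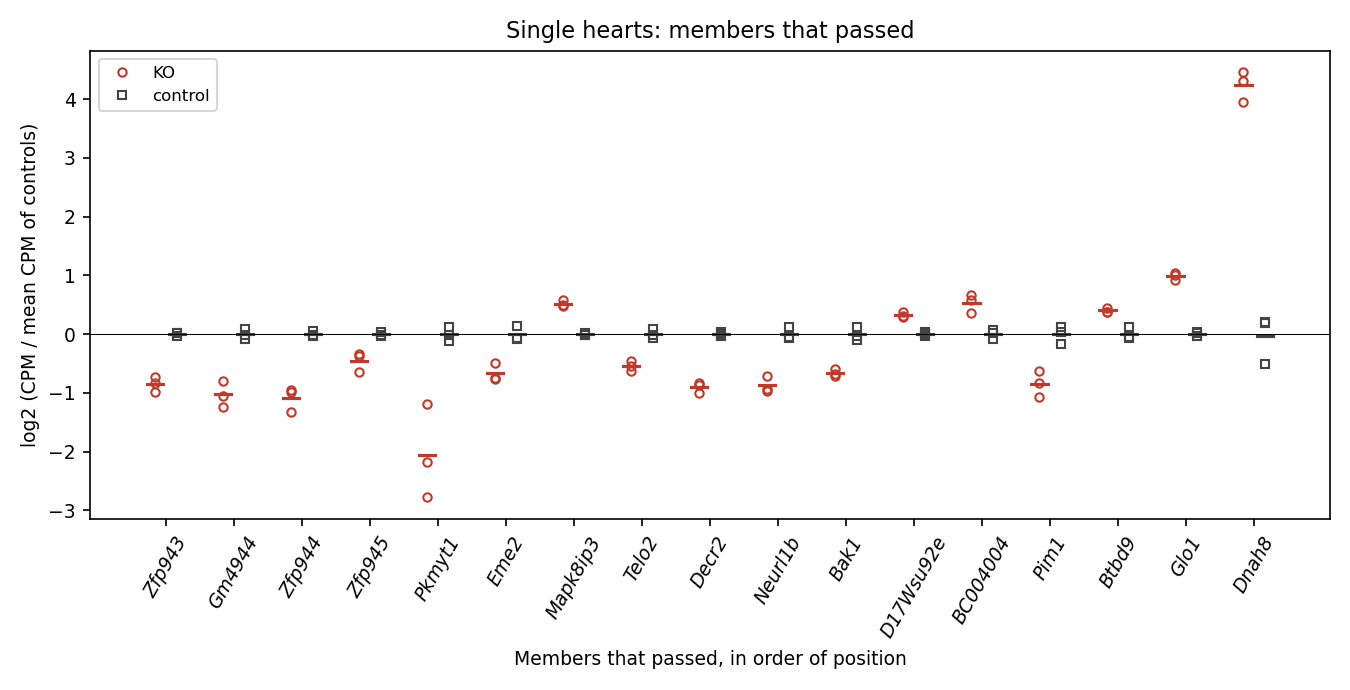
Values of single hearts for the 17 genes that passed, in order of position (x axis), as log2 of CPM over the mean CPM of the controls (y axis); circles are KO hearts, squares control hearts and bars the group means of the log2 values. In all 17 the KO hearts lie on one side of the controls, from Pkmyt1 at the bottom to Dnah8 at the top.

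For 3 of the genes a pseudogene on another chromosome, near-identical over at least part of its length, had counts almost only in KO hearts. Gm13443, a pseudogene of Glo1 sequence on chromosome 2, had 14.8, 14.4 and 14.7 CPM in KO hearts 1 to 3 and 0 counts in all 3 controls. Summed over both, Glo1 sequence had 174.5 ± 7.43 CPM in the KO group and 80.5 ± 1.98 CPM in controls, a log2 ratio of 1.12 in place of 0.99. BC004004 passed on its own (188 ± 20.4 CPM in the KO group and 129.6 ± 6.74 CPM in controls, edgeR adjusted p = 0.0247, lost without KO heart 3 or any control at 0.0871 to 0.125). Gm10163, on chromosome 9, which shares sequence with it, had 86.7, 65.8 and 76.3 CPM in KO hearts, against 0.142, 0.0786 and 0 CPM in controls. The sum of BC004004 and Gm10163 had a log2 ratio of 1.03. Of the exon bases of BC004004, 483 (2.5%) overlap another processed pseudogene, Gm10045, on the same strand. Which stretch of BC004004 matches Gm10163 was not examined, so what their sum measures is uncertain. Atp6v0c, a proton pump subunit that did not pass (log2 fold change -0.29), has the copy Gm15487 on chromosome 6, with 22.0, 16.5 and 18.1 CPM in KO hearts, against 0, 0.0315 and 0 CPM in controls. The sum of that pair had a log2 ratio of -0.03. The pseudogenes of the whole table were one-sided too: of 108 tested, 28 were higher and 1 lower in KO hearts. In 13 of them the control mean was below 0.1 CPM and the KO mean above 1 CPM, and in 0 the reverse. The estimated counts of a gene and its copy depend on each other.

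By functional list, the shares that passed are to be read against 6.03% of all genes, 3.29% higher and 2.74% lower. The lists are broad and some genes fit a list name only loosely, such as the motor protein Dnah8 under membrane transport and organelles. A share is of a list, not of a function. The 23 tested genes of the transcription and chromatin list held 3 that fell and none that rose, Zfp943, Zfp944 and Zfp945, with a list median log2 fold change of -0.23 (13.0% passed). Of the 27 signalling genes 1 rose, Mapk8ip3, and 4 fell, Pkmyt1, Telo2, Neurl1b and Pim1 (18.5%, median -0.05). Of the 8 genes of cell death and stress Bak1 and Pim1 fell and none rose (25%, median -0.08). Of the 24 genes of metabolism and mitochondria Glo1 rose and Decr2 fell (8.33%, median 0.07). Of the 20 genes of membrane transport and organelles Btbd9 and Dnah8 rose and none fell (10%, median -0.01). None of the 16 genes of RNA and protein synthesis passed in edgeR's test, with a median of -0.07. Against 2732 of 12686 over all genes, 1 of the 16 had an unadjusted p below 0.05. That gene was Ppil1, a spliceosome isomerase, with 15.7, 9.40 and 15.65 CPM in KO hearts, against 20.6, 20.6 and 24.8 CPM in controls (log2 fold change -0.70, edgeR adjusted p = 0.0933); DESeq2 called it. Next by p was Rpusd1 (log2 fold change -0.27, edgeR adjusted p = 0.26). The one tested gene of the protease list, Capn15, did not pass (-0.12). Lists overlap, and 36 tested genes are in none.

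The other 124 tested genes did not pass, and their log2 fold changes ran from -0.86 (Fgd2, a Cdc42 activator) to 0.78 (Gm20683). Among them 117 were within 0.5 of 0 on the log2 scale and 87 within 0.25. For 91 of the 141 the 95% interval lay within a 1.5-fold change in either direction, whereas for 7 that did not pass it reached beyond 2-fold. Eci1, a mitochondrial enzyme of fatty acid oxidation and the gene with the highest mean CPM, had 341, 249 and 255 CPM in KO hearts 1 to 3, against 247, 233 and 270.0 CPM in control hearts 1 to 3 (log2 fold change 0.17, -0.15 to 0.49). Mapk14, the p38 stress kinase, named after its values were seen, had 53.9, 50.2 and 53.5 CPM in KO hearts, against 51.4, 54.6 and 51.6 CPM in controls (edgeR adjusted p = 0.998).

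Along the chromosome, 10 of 93 tested proximal genes passed (10.8%), 1 higher and 9 lower. Of 48 distal genes 7 passed (14.6%), 5 higher and 2 lower. Over all genes tested 6.03% passed, 3.29% higher and 2.74% lower, and the counts below are to be read against these. The difference in direction between the sides was not tested. Calls were 3 of 6 genes at 4 to 5 Mb proximal (all lower) and 3 of 4 at 3 to 4 Mb distal (all higher), both with under 20 genes. At 4 to 5 Mb distal 0 of 6 passed in edgeR's test, with a median absolute log2 fold change of 0.07. Within 1 Mb of Nkx2-5 2 of 21 proximal (9.52%) and 2 of 13 distal genes (15.4%) passed, few genes on either side. Beyond the window, among protein-coding genes of chromosome 17 chosen by the same exclusions, 3 of 13 passed at 5 to 10 Mb and 12 of 41 at 10 to 20 Mb proximal. On the distal side 3 of 122 passed at 5 to 10 Mb and 0 of 55 at 10 to 20 Mb in edgeR's test. Of the 55, 12 had an unadjusted p below 0.05, against 2732 of 12686 over all genes. Over whole chromosomes 10.1% of the tested protein-coding genes of chromosome 17 passed, against 12.1% on chromosome 1 and 3.03% to 8.17% on the other chromosomes.

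**Figure D4:**
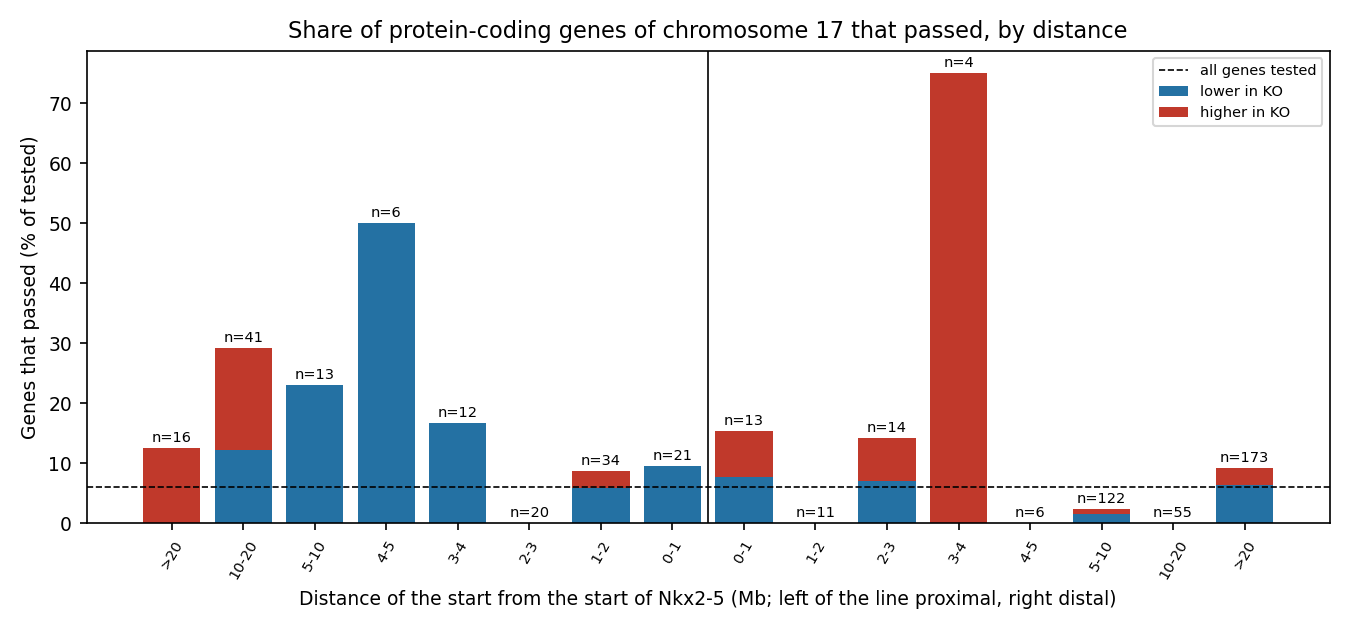
Share of tested protein-coding genes that passed (y axis, percent) by distance of the start from that of Nkx2-5 in Mb (x axis), split into lower (blue) and higher (red) in KO hearts, with the number tested above each bar and the share over all genes, 6.03%, as a dashed line. The 4 to 5 Mb proximal bar is all lower and the 3 to 4 Mb distal bar all higher; both hold few genes.

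The number of genes that passed moved most when KO heart 1 was left out. Without it 42 of the 141 passed (29.8%), 13 higher and 29 lower, among them all 17, while over all genes the share was 22.8%. Without KO heart 3, control 1, control 2 or control 3 the numbers were 9, 7, 8 and 8, and without KO heart 2 12. In that order these were 6.38%, 4.96%, 5.67%, 5.67% and 8.51% of the 141, against 3.36%, 2.27%, 2.36%, 2.5% and 3.87% over all genes. In all 6 such fits 7 genes passed: Zfp943, Zfp944, Mapk8ip3, Decr2, Bak1, Glo1 and Dnah8. The share of all genes that passed in all 6 was not taken, so this number has no background beside it. In KO heart 1, 17 of the 141 genes lay more than 0.5 (log2) from the mean of the other KO hearts, a share of 12.1% against 18.6% over all genes. The other libraries had 1 to 7 such genes. Pi16, a gene of cardiac fibroblasts, chosen after its values were seen, had 28.2 CPM in KO heart 1 and 57.3 and 53.0 CPM in the other KO hearts, against 29.7, 28.2 and 30.4 CPM in controls (edgeR adjusted p = 0.172), beside the fibroblast marker sums given above; the part of fibroblasts in this was not tested.

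**Figure D5:**
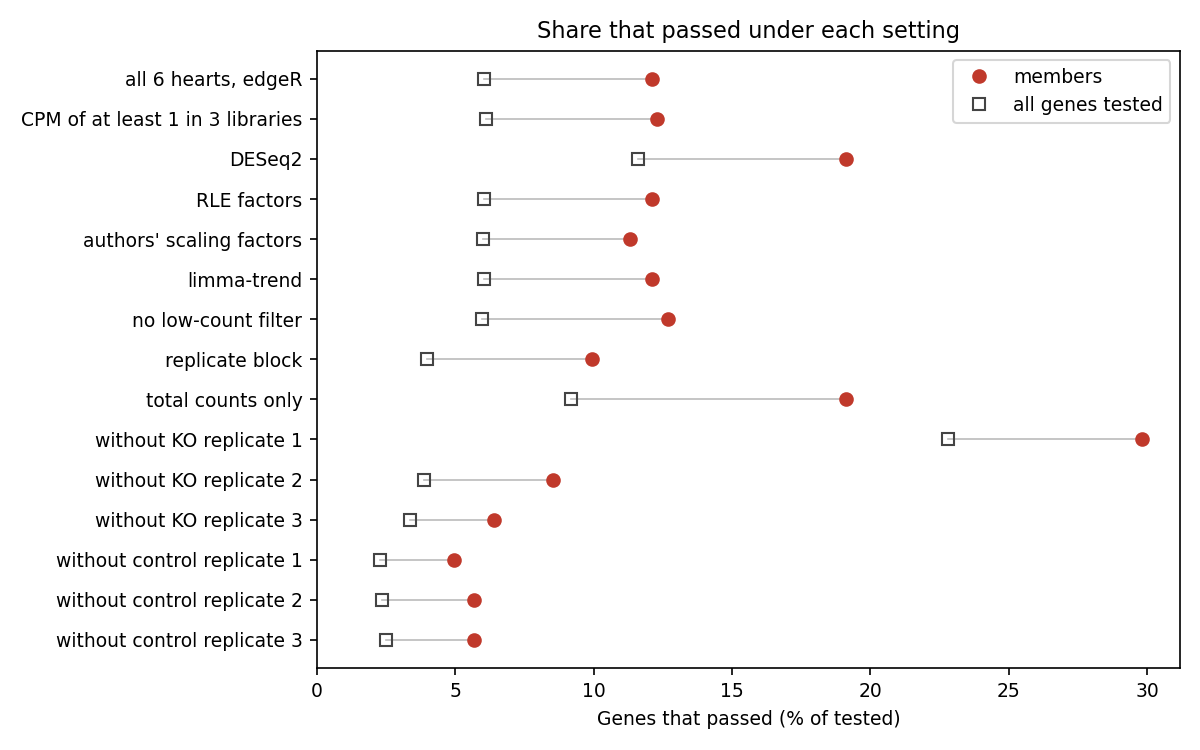
Share of genes that passed (x axis, percent of tested) among the genes flanking Nkx2-5 (filled circles) and among all genes tested (open squares), 1 line per setting (y axis). The circle lies right of the square under each setting shown, and both move furthest without KO heart 1, at 29.8% and 22.8%.

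By the authors' deposited table, an adjusted p below 0.05 was given to 16 of the 142 genes (11.3%), 7 higher and 9 lower in KO hearts, against 6.43% of all genes there. Of the 16, 12 also passed here; the other 4 in the authors' deposited table were Metrn, Pgp, Pi16 and Ppil1. The 5 that passed only in the edgeR fit here were Btbd9, D17Wsu92e, Neurl1b, Telo2 and Zfp945.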

How the data were processed

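Poly(A)-selected RNA of 6 perfused, frozen hearts was sequenced, 3 per genotype, per the labels' protocols. RSEM 1.17, edgeR, Picard, cutadapt and the build GRCm38 are named, per the submitters' processing notes, whereas no aligner, annotation release or strand setting is. The table holds raw values per library, per the file headers; as RSEM is named, these whole numbers were treated as estimated counts made by the authors. The authors' deposited normalized signal equals the count times 1 factor per library, as found from the values. A log2 fold change and p-values are the authors' own, per the file headers.

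Counts were tested with edgeR 4.0.16 (R 4.3.3): default filter by group (138 genes removed), TMM factors, robust quasi-likelihood fit of genotype over all genes, Benjamini-Hochberg adjustment. SE is the absolute log2 fold change over the square root of F. Common biological variation between replicates (coefficient) came to 13.6%. The steps were tested on simulated data. P-values set the difference between the groups against the spread between hearts within groups. They cannot tell loss of Srsf4, carriage of Cre and the library split apart.

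Exon overlaps and coordinates were checked with GENCODE M21 (GRCm38), where 12761 of the 12824 genes were found, 8285 with the same start and end. Near-identical copies had at least 90% identity over 200 bases and 50% of the shorter transcript (blastn 2.17.0). Matches on either strand counted, also between genes that overlap in position. Of the 142 genes, 42 had such a copy or at least 10% of exon bases in another gene. Genes named were the 10 largest rises and falls that passed, had mean log2 CPM of 1 or more and had no overlap between groups, the 5 nearest Nkx2-5 on each side, the 2 smallest p of each functional list and the 3 highest CPM. The values of 1 gene that this names are not reported here. The genes and lists were chosen with earlier results of these data known. Alternatives were RLE factors, total counts, the authors' factors, DESeq2 1.42.0, limma-trend (limma 3.58.1), other filters, windows and thresholds, the heart number as a block, and leaving out each library.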

Additional observations from a re-analysis of the deposited data

How the results depend on the processing

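Over all genes the number that passed was 765, against 1468 with DESeq2, 1163 with total counts only, 505 with the replicate block, and 288 to 2896 when 1 library was left out. For the genes flanking Nkx2-5 it was 17 of 141. It was 27 with DESeq2 (19.1%, against 11.6% of all genes) and 27 with total counts only (4 higher, 23 lower, 19.1% against 9.17%). It was 8 within 2.5 Mb and 11 of 99 without genes that share sequence. At an edgeR adjusted p below 0.01 it was 7, with no share over all genes taken. At 2-fold or more it was 4, against 2.42% of all genes. With 1 library left out it was 7 (without control 1) to 42 (without KO 1). The cause was not tested where the fit itself changed. With RLE factors, the authors' factors (chosen after seeing the data, as was leaving out genes that share sequence or adding those the rule leaves out), limma-trend, no filter, or a CPM filter it was 16 to 18, with Zfp945 lost under no filter and D17Wsu92e with the authors' factors; within 10 Mb it was 23, and with the genes left out by the rule 22. The median log2 fold change of -0.057 moved to -0.195 with total counts only, which shifts the median of all genes to -0.14; it was -0.102 without KO 1, -0.032 without KO 3, -0.03 without control 3 and -0.09 within 10 Mb. The replicate block gave 14 genes, 13 of them among the 17; Btbd9, D17Wsu92e, Telo2 and Zfp945 were lost and Ppil1 was gained. Same-numbered hearts did not deviate together (correlations over genes of -0.0639, 0.151 and -0.256), and KO 1 and KO 3 correlated best with another number, so hearts share only a number.

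Among the genes named by the rule, signs turned for 4 near 0 that did not pass: with total counts only Ergic1 was -0.082, Atp6v0e -0.08 and Crebrf -0.098, and without 1 library Atp6v0e ran from -0.046 to 0.137, Crebrf from -0.022 to 0.11 and Bnip1 from -0.179 to 0.028. A CPM filter removed Pkmyt1 from the test. At these depths the 95% interval lay within 1.5-fold in 91 of the 141 genes, so smaller changes in the others could be missed.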
